A study of Rattus norvegicus with 6 samples.

Results

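The renal cortex of vehicle-treated rats was profiled on expression microarrays in a study of o-anthranilic acid, and the genes measured in it are described here by the order and the spread of their signals. The 3 animals were male Sprague-Dawley rats of the Crl:CD(SD) stock, bought at 5 weeks of age, kept on a basal diet and given corn oil alone for 4 weeks. A treated group of 3 rats, which received o-anthranilic acid (1000 mg/kg/day) over the same time, was not used here. RNA from the cortex of each animal was hybridised to a separate single-colour array, so 3 of the 6 arrays in the series enter, and the labels call the animals biological replicates. A gene was kept when at least 1 of its probes, the short DNA sequences printed on the array, was flagged well above background by the scanner software in all 3 animals. By that rule 11648 of the 15281 named genes (76.2%) were kept, and of the 3633 that were not, 2900 were well above background on no vehicle array.

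The renal cortex filters blood in the glomeruli and then recovers most of the filtrate. The proximal tubule takes back glucose, phosphate, amino acids and filtered protein, secretes organic acids and bases, makes glucose and runs on mitochondrial oxidation. The thick ascending limb, the distal convoluted tubule and the collecting duct adjust salt, water, calcium and acid, and the cortex also makes active vitamin D.

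Levels are given as log2 of the probe's signal relative to the 75th percentile of the same array, so 0 is that percentile and a step of 1 is a doubling of signal. Each gene is represented by its brightest kept probe, and its percentile is its place by mean signal among the 11648 kept genes. The 75th percentile itself lay at intensities of 921, 1004 and 869 in vehicle replicates 1, 2 and 3, and between 66.0% and 69.3% of probes were well above background on an array. No spot was saturated. Probes bind their targets with different strength, and among the 5927 genes with more than 1 kept probe the brightest and the dimmest probe of a gene differed by a median of 2.15 log2 units. The order of genes is therefore an order of probe signals and not of transcript numbers. In a piece of tissue, fewer cells of a type and less RNA per cell cannot be told apart.

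By mean signal the brightest named gene of the vehicle cortex was Miox, known as a proximal tubule enzyme. It encodes the oxygenase that opens myo-inositol. Its level was 9.53, 9.40 and 9.59 in replicates 1 to 3, a mean of 9.50 ± 0.09 (SD, n = 3). The highest signal of any probe used, named or not, was above it on each array, at 9.89, 9.72 and 10.02. Fbp1, an enzyme at a controlling step of glucose synthesis, was nearly as bright at 9.35, 9.10 and 9.42. The ferritin genes Ftl1 and Fth1, which store iron, had means of 9.27 and 9.02. Cyp4a2, a P450 that hydroxylates the end of fatty acids such as arachidonic acid, had a mean of 9.11 ± 0.10 (SD, n = 3).

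The rest of the 15 brightest genes mixed kidney genes with genes of every cell. Slc13a3, the sodium-dicarboxylate carrier of the basolateral membrane, stood at 8.76, 8.68 and 8.81. Among the others were Atp5f1a (mean 8.96), a catalytic-head subunit of ATP synthase, Ctsb (8.79), a lysosomal protease, and Mt1 (8.99), a metal-binding protein. Rpl41 (8.99) encodes a ribosomal protein and Ubb (8.86) ubiquitin. Chchd2l3 (8.84) and Ceacam9 (8.71) completed the set with Kap, the kidney androgen-regulated protein. The place of Ceacam9 rests on 1 kept probe. Another probe of that gene was well above background on no array, at -7.95, -8.01 and -7.52. Kap was the exception in spread: its level was 9.36 in replicate 1 and 9.61 in replicate 3 but 8.10 in replicate 2, and its SD of 0.81 compared with SDs of 0.05 to 0.20 for the other 14.

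A promoter is shown for Miox and for Slc34a1, the sodium-phosphate carrier of the proximal brush border. They were chosen because both genes are near the top of the order and both windows hold TATAAA. These are the letters of the TATA box, an element that positions the start of transcription at many strongly expressed genes. Each promoter is the 250 bases before the gene's start in RefSeq's GRCr8 rat assembly, written 5′ to 3′ on the gene's own strand. Matches to TATAAA are in capitals, and both strands were searched. The Miox window lies at chr7:122284410-122284659 on the plus strand and the Slc34a1 window at chr17:9238984-9239233 on the minus strand.
Miox: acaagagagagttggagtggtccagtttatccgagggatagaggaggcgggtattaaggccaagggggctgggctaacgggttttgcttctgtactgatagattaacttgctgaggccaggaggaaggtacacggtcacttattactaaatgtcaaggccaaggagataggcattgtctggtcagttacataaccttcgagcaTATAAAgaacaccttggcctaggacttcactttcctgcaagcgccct
Slc34a1: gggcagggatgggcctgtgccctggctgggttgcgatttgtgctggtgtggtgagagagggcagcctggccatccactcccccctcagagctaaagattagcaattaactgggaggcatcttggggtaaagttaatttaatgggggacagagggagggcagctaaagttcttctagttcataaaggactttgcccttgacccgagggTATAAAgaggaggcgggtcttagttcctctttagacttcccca
The match in Miox begins 47 bases before the start and that in Slc34a1 43 bases before it. Of 9128 kept genes with 1 promoter in the RefSeq table, 747 (8.18%) held TATAAA on either strand in this window. Among the 100 brightest of these genes 25 held it, among 18 promoters of the convoluted proximal tubule list 3 did (16.7%), and among 36 of the respiratory chain list 1 did (2.78%). The windows of Kap, Fbp1, Slc13a3 and Atp5f1a, described above, held none. Of genes described below, Umod and Hba-a1 held it in their windows and Lrp2 did not. These are letter matches in a short window, and their use in transcription was not measured.

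Genes of the convoluted proximal tubule ranked high. All 20 genes on that list were kept, with a median percentile of 95.4, and 14 lay at or above the 90th percentile, where 1165 of all kept genes lie. List medians are over kept genes alone, and the median over all kept genes is the 50th percentile. Slc34a1 led the apical carriers with 8.60, 8.45 and 8.63. Slc5a2, the glucose carrier SGLT2 of the early proximal tubule, gave 7.49, 7.55 and 7.42. The levels of both varied little between animals. The organic anion transporters of the basolateral membrane that bring drugs and metabolites into the cell for secretion were as bright: Slc22a6 (OAT1) at 8.05, 8.15 and 8.29, and Slc22a8 (OAT3) at 7.90, 7.88 and 7.93. Lrp2 and Cubn encode megalin and cubilin, the receptors that retrieve filtered protein, and had means of 6.45 and 5.36. Aqp1, the constitutive water channel, averaged 6.80, the electrogenic bicarbonate carrier Slc4a4 5.36, and the scaffold protein Pdzk1 6.39. The lowest member was Slc9a3, the sodium-proton exchanger NHE3, at 0.20, 0.05 and -0.57 (percentile 46.1), with Hnf4a, a regulator of proximal tubule genes, at 0.62, 0.17 and 0.33 just above it.

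The straight proximal tubule and the brush border enzymes were also bright but less even. All 10 straight-part genes were kept, with a median percentile of 73.8 and 4 at or above the 90th. Slc3a1, the heavy subunit of cystine transport, averaged 8.15 and Napsa, an aspartic protease, 7.83. Slc7a13, an amino acid carrier of the straight part, was 6.36 in replicate 1 against 4.42 and 4.83 in replicates 2 and 3, and its range of 1.94 equals a 3.82-fold difference in signal. Of 18 brush border genes 16 were kept, with a median percentile of 90.2. Cltrn (collectrin), which assists apical amino acid carriers, led with 7.75, 7.82 and 7.86, followed by Pdzk1, named above, and the actin linker Ezr, both at a mean of 6.39, and the peptidase Dpp4 at 5.93. Mep1b, the beta subunit of the metalloprotease meprin, was 4.66, 2.66 and 3.61, highest in replicate 1 and lowest in replicate 2.

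Glomerular genes spanned nearly the whole order. Of 18 podocyte genes 14 were kept, with a median percentile of 47.7 and 1 above the 90th. Podxl, which coats the foot processes, was the brightest at 4.37, 4.20 and 4.29, and Clic5, a protein of the podocyte cytoskeleton, followed at 3.81, 3.79 and 3.90. The slit diaphragm gene Nphs1 (nephrin) was at 1.07, 1.00 and 1.25 (percentile 60.9). Cdkn1c, a cell cycle inhibitor of mature podocytes, was 2.92, 2.57 and 3.31. Podocyte genes were on average 0.14 below their own means in replicate 2 and 0.19 above them in replicate 3.

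**Figure D1:**
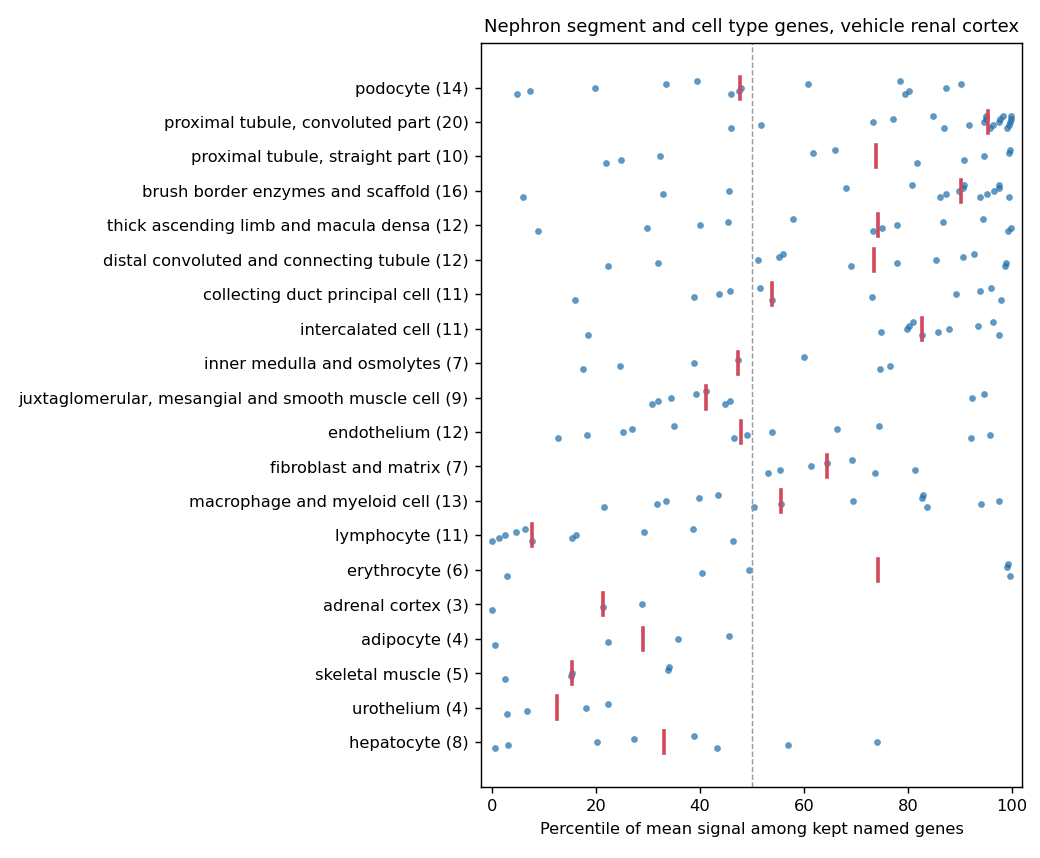
Each point is a kept gene at its percentile of mean signal among the 11648 kept genes (horizontal axis, percent), in rows by nephron segment or cell type with the number of kept genes in brackets; red bars are row medians and the dashed line is the 50th percentile. The convoluted proximal tubule row sits highest with a median of 95.4 and the lymphocyte row lowest with 7.83.

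Every segment of the distal nephron had genes in the upper part of the order. Umod, the urinary glycoprotein of the thick ascending limb, reached 8.72, 8.14 and 8.91, lowest in replicate 2. Egf, a growth factor made by the distal tubule, was even at 5.17, 5.10 and 5.19. The calcium receptor gene Casr was at 3.73. Of 15 thick limb and macula densa genes 12 were kept (median percentile 74.2), the macula densa genes Nos1 and Ptgs2 were not well above background in all animals, and Slc12a1, the limb's main salt carrier, has no value because no probe used here was named for it.

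For the distal convoluted and connecting tubule 12 of 16 genes were kept, with a median percentile of 73.5. Fxyd2, a regulator of the sodium pump, averaged 7.34 and Klk1, the kallikrein made by the connecting tubule, 7.19. Slc12a3, the thiazide-sensitive salt carrier, gave 4.47, 4.32 and 4.29, and its upstream kinase Wnk1 gave 4.73, 4.89 and 4.76. Pvalb and Kcnj10 were not well above background in all animals. S100g, a calcium-binding protein, was the most variable member of the list at 2.21, 1.63 and 1.74.

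Among collecting duct genes, principal cell markers and intercalated cell markers both included bright members. Aqp2, the vasopressin-regulated water channel, was at 6.46, 6.55 and 6.67, and Aqp3, the exit channel, at 4.83, 5.08 and 5.19. Hsd11b2, the enzyme that shields the mineralocorticoid receptor from glucocorticoid, averaged 5.64. The sodium channel subunits ranked far apart, with Scnn1b at a mean of 4.09 and Scnn1a at -0.13, which orders probes and not subunit numbers. Of 13 intercalated cell genes 11 were kept with a median percentile of 82.8. The proton pump subunit Atp6v1g3 led with 6.27, 6.52 and 6.47, before Slc26a4 (pendrin) at 5.78, 5.88 and 5.87 and Car2, a carbonic anhydrase, at 4.85, 5.13 and 4.97. Foxi1, the transcription factor of this cell type, was at 3.65, 3.43 and 3.72. The most variable member was Slc4a1, the band 3 anion exchanger also found in red cells, at 3.21, 3.64 and 2.85.

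Markers of the medulla and of osmotic adaptation were lower in the order. The 7 genes of the inner medulla and osmolyte list had a median percentile of 47.3 and none at or above the 90th. The inositol carrier Slc5a3 was the brightest at a mean of 2.57, with the tonicity regulator Nfat5 at 2.38. Akr1b1, aldose reductase, varied most, at -0.16, -0.20 and 0.32.

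Endothelial, stromal and immune markers described the other cells of the cortex. Plvap, of the fenestral diaphragm, was the brightest endothelial gene at 5.52, 5.77 and 5.47, before Kdr, a VEGF receptor, at 4.61, 4.73 and 4.68. Of 15 endothelial genes 12 were kept, with a median percentile of 47.8, and 7 of them lay below the 50th. Notch3, a mural cell receptor, had a mean of 4.72. Its list of juxtaglomerular, mesangial and smooth muscle cell genes had 9 of 11 kept. The median percentile of that list was 41.2, and 7 genes lay below the 50th. Of the macrophage and myeloid list 13 of 15 genes were kept (median percentile 55.5), led by Lyz2 (lysozyme) at 6.36, 6.31 and 6.62 and by Cd74, the invariant chain, at 5.36, 4.91 and 4.92. Lymphocyte genes sat at the bottom: 11 of 14 were kept with a median percentile of 7.83, and the brightest, Cd3d, had a mean of -0.08. Globin genes of blood were near the top and slightly higher in replicate 3. Hba-a1 was 8.16, 8.22 and 8.55 and Hbb 7.54, 7.64 and 7.97, although globin paralogs are near-identical and a probe may bind several of them.

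Markers of neighbouring tissue were mostly dim. Only 3 of 8 adrenal cortex genes were kept, none above percentile 28.9, and Cyp11a1, Star, Cyp11b1, Mc2r and Nr5a1 were not well above background in all animals. For fat, 4 of 8 genes were kept and Adipoq, the brightest, had a mean of -0.15, while Lep, Retn and Fabp4 were dim. The uroplakin gene Upk1b, the brightest of the urothelium list, stood at -2.42, -2.74 and -2.21. All 5 kept genes of the skeletal muscle list lay below the median of all genes. Of the hepatocyte list, the coagulation factor gene F2 was brightest at 2.56, 2.02 and 2.36. The male-predominant liver P450 Cyp2c11 was its most variable member and is described with the animals.

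Genes of sodium and phosphate transport were among the brightest carriers. The sodium pump, which drives nearly all tubular transport, was even in its beta subunit: Atp1b1 gave 8.38, 8.40 and 8.43. The pump and sodium entry list had 11 of 12 genes kept and a median percentile of 86.3. Among 11 phosphate, sulphate and dicarboxylate carriers, all kept with a median percentile of 90.7, the anion exchanger Slc26a1 averaged 6.09 and the apical dicarboxylate carrier Slc13a2 had 4.78 in replicate 1 and 5.30 and 5.42 in the other animals. That median fell by 15.6 percentile points when a gene was represented by the median of its probes. Slc34a2, the phosphate carrier of lung and gut, lay at the other end of the list with -4.03, -5.22 and -4.56.

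Sugar and amino acid carriers covered a wide span. Of 10 hexose carriers 8 were kept, and after Slc5a2 came Slc2a2 (GLUT2), the exit carrier of the early proximal tubule, at 3.67, 3.91 and 3.73. Slc2a5, the fructose carrier, was 2.56 and 2.23 in replicates 1 and 3 and 0.84 in replicate 2. For amino acids and peptides 17 of 19 carriers were kept with a median percentile of 81.7. Slc7a9, the light subunit that pairs with Slc3a1, had 5.52, 5.69 and 5.63, and Slc7a8, a basolateral exchanger, had 5.29, 5.05 and 5.21. Slc38a3, a glutamine carrier tied to ammonia formation, was at -0.37, -1.16 and -0.86.

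Carriers of drugs and metabolites included the bright, even anion carriers named above and a dimmer set that differed between animals. Slc22a2, the organic cation transporter OCT2, was 4.99 in replicate 1, 3.98 in replicate 2 and 4.45 in replicate 3. Slco4c1, a basolateral organic anion carrier, gave -2.32, -4.77 and -3.79, in the same order, a range of 2.45 that was 1.46 with the other background correction described below. The mean difference from each gene's own mean over the 19 kept genes of 21 was 0.31, -0.28 and -0.03 in replicates 1 to 3. Of these 19 genes, 9 were highest in replicate 1 and lowest in replicate 2. Of all 11648 kept genes, 1748 had that order. Export pumps were lower: Abcg2, which exports urate, had 3.56, 3.77 and 3.58, and Abcc4 and Abcc2 had means of 2.29 and 1.75. Slc22a3, Slc47a2 and Abcb4 were dim.

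**Figure D2:**
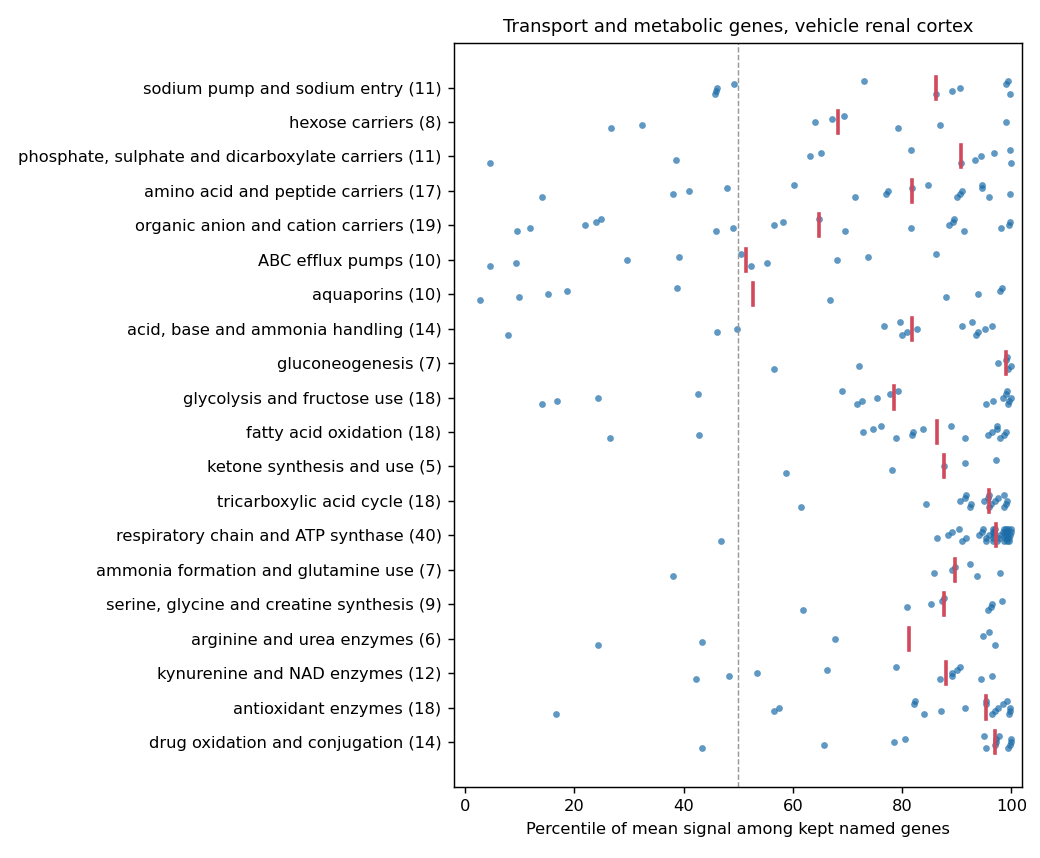
Transport and metabolic genes are drawn the same way, 1 point per kept gene on the percentile axis (percent), with red row medians. The gluconeogenesis row has a median of 99.0 and the respiratory chain row of 97.2, while the ABC efflux pumps have a median of 51.4.

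Metabolic lists were led by glucose synthesis and mitochondrial oxidation. All 7 gluconeogenic genes were kept with a median percentile of 99.0. Pck1, which commits oxaloacetate to glucose, gave 7.70, 7.88 and 7.93, and pyruvate carboxylase (Pc) gave 7.72, 7.42 and 7.64. G6pc1, which releases free glucose, was at 7.56, 7.38 and 7.35. In fructose use, ketohexokinase (Khk) was 8.14, 7.74 and 8.06. The hexokinase gene Hk2 was not well above background in all animals, and Hk3 stood at -3.76, -3.25 and -3.10. The glycolysis list as a whole, 18 of 19 kept, had a median percentile of 78.5.

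Respiratory chain and ATP synthase genes formed the most uniformly bright long list, with 40 of 42 kept, a median percentile of 97.2 and 36 at or above the 90th. Cox6a1, a cytochrome oxidase subunit, was 8.61, 8.61 and 8.80 and Cox8a 8.17, 8.10 and 8.34. Atp5po, of the ATP synthase stalk, averaged 8.09. The tricarboxylic acid cycle had all 18 genes kept and 16 at or above the 90th percentile. Suclg1, of succinyl-CoA ligase, averaged 7.55, Idh2, the NADP-linked isocitrate dehydrogenase of mitochondria, 7.44 and Sdha, of complex II, 7.11. Idh3a was the lowest member at 1.04, 1.33 and 1.14. The median SD over this list was 0.0779, and over all kept genes it was 0.116.

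Fuel use beyond glucose was also represented. All 18 fatty acid oxidation genes were kept with a median percentile of 86.3. Hadh, a beta-oxidation dehydrogenase, averaged 7.48 and the fatty acid carrier and ligase Slc27a2 7.04, while Pdk4, a fasting-responsive kinase that restrains pyruvate use, was -1.47, -2.87 and -1.71. The ketone-using enzyme Oxct1 was 6.16, 6.50 and 6.20. For ammonia formation, Glud1 (glutamate dehydrogenase) averaged 6.63. Phgdh, which begins serine synthesis, averaged 6.89 and Gatm, the first enzyme of creatine synthesis, 5.57. Ass1 and Asl, by which the kidney makes arginine, averaged 6.10 and 5.29, while the urea cycle genes Cps1 and Otc were dim.

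The kynurenine pathway breaks down tryptophan and forms anthranilic acid in the body, and its genes were listed together with those of NAD synthesis. Of these 14 genes 12 were kept with a median percentile of 88.0, and 4 lay at or above the 90th. Naprt, of NAD salvage, averaged 5.84, the aminotransferase Kyat1 5.17 and Qprt, which makes the NAD precursor from quinolinate, 4.27. Aadat, another kynurenine aminotransferase, was 5.18, 3.64 and 4.27, a range of 1.54. The dioxygenases that open tryptophan, Tdo2 and Ido1, were not well above background in all animals.

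Antioxidant and drug-metabolising genes ranked high, with median percentiles of 95.3 over all 18 antioxidant genes and 97.1 over 14 of 17 drug metabolism genes. Gpx3, the plasma glutathione peroxidase that the kidney secretes, was 8.16, 8.08 and 8.22, and its cellular relative Gpx1 8.29, 8.19 and 8.45. Sod1 averaged 7.95. Cyp2c23, the main arachidonic acid epoxygenase of rat kidney, was the evenest of the bright P450 genes, at 8.68, 8.67 and 8.66. Cyp4a8 averaged 8.43 and Acsm2, a medium-chain acyl-CoA ligase, 7.72; Cyp4a genes are close paralogs whose probes may bind each other's transcripts. Cyp1a1, the classical target of the aryl hydrocarbon receptor, was dim, as were Cyp3a2 and Ugt2b1.

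Endocrine genes and transcription factors sat near the middle of the order. Pth1r, the parathyroid hormone receptor, had a mean of 4.43 ± 0.03 (SD, n = 3) and Bmp7 had 3.94, 4.09 and 4.08. Kl (klotho), the co-receptor of FGF23, was even at 1.79, 1.75 and 1.82, while Cyp27b1, which activates vitamin D, stood at -0.02, 0.23 and -0.16. Epo was not well above background in all animals. Of 28 transcription factors 24 were kept with a median percentile of 53.1, led by Tfcp2l1, a collecting duct factor, at a mean of 5.53, Esrra, a mitochondrial regulator, at 5.03 and Nr1h4, the bile acid receptor, at 4.87. Cdx2, Nkx2-1 and Sox10, factors of gut, lung and neural crest put on the list for contrast, were kept as well but lay at percentiles 7.46, 6.01 and 13.3.

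Injury, growth and clock genes ran from the bottom of the order to its upper part. Havcr1 (KIM-1), the standard marker of proximal tubule injury, was among the dimmest genes kept, at -5.30, -4.86 and -5.00 (percentile 1.71). Lcn2, another injury marker, was -3.22, -1.97 and -1.89, lower in replicate 1. Clu was 3.05, 3.12 and 3.95, higher in replicate 3, and the p21 gene Cdkn1a averaged 5.04. Of the proliferation list Pcna was brightest at a mean of 1.80 and Cdk1 next at 0.41. Among clock genes Dbp, an output factor, gave 3.04, 3.06 and 3.18, and Bmal1 1.45, 1.73 and 1.55. Bhlhe40, a clock-linked repressor, was the most variable of them, at -1.59, -0.31 and -1.67. Of the immediate early genes, Jun gave 3.56, 3.12 and 3.64 and Zfp36, an RNA-decay factor, -1.61, -2.86 and -2.35.

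Differences between the 3 animals were small for most genes and large for a few. Across kept genes the arrays correlated pairwise with r of 0.993 to 0.994, a figure across genes, which are not independent. The median SD over the animals was 0.116, and its 90th percentile over genes was 0.322. Spread fell with brightness, from a median SD of 0.190 in the dimmest of 4 equal groups of genes to 0.0891 in the brightest. For 395 genes (3.39%) the highest and the lowest animal differed by over 1 log2 unit, and for 65 by over 2. That count was 212 with a different background correction (normexp), 162 without replicate 2 and 188 without replicate 1, 259 without replicate 3, and 1428 with no filter on dim probes. No test between animals was possible, since each was measured once.

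**Figure D3:**
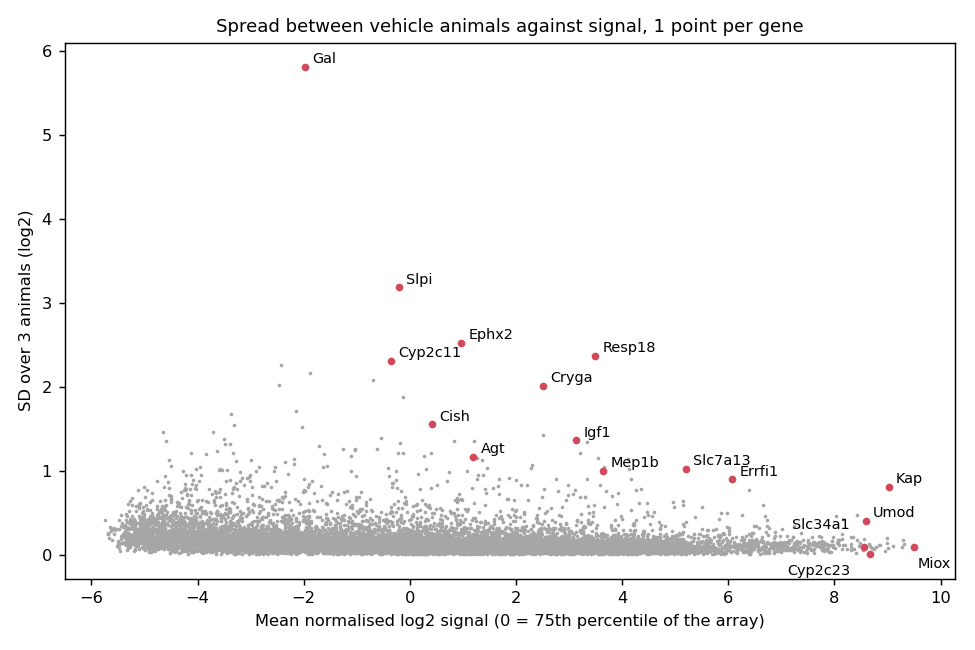
The SD over the 3 animals (vertical axis, log2) is plotted against the mean normalised log2 signal (horizontal axis), 1 grey point per kept gene, with named genes in red. Most points lie along the bottom, around the median SD of 0.116; among the brightest genes, Kap stands above the rest with 0.81.

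The 15 most variable genes among those at or above the median level were mostly highest in replicate 1 (10 genes) and lowest in replicate 2 (7 genes) or replicate 3 (6 genes). Ephx2, the soluble hydrolase of epoxy fatty acids, was 2.48 and 2.36 in replicates 1 and 2 and -1.95 in replicate 3, a 21.5-fold difference in signal. Resp18, a secretory granule gene, was 0.75 in replicate 1 and 4.92 and 4.79 in the others. Cryga, a lens crystallin gene, was 3.73 and 3.62 but 0.19 in replicate 2. Of the 15, these and 4 more had 1 kept probe, so no other probe could be set beside them. The 4 were Gstm1, given below, the methyltransferase Inmt at 2.52, 1.29 and -0.19, the retinol saturase Retsat at a mean of 3.22 ± 1.22 (SD, n = 3), highest in replicate 1 and lowest in replicate 3, and Rtp4, an interferon-induced gene, at 1.53, -0.81 and 0.08.

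In the other 8 genes more than 1 probe gave the same order. Igf1, the growth factor, was 3.36, 4.37 and 1.68, and its other kept probes ordered the animals alike. Cish, a feedback inhibitor of cytokine receptors that signal through STAT5, was 1.20 and 1.42 in replicates 1 and 3 and -1.37 in replicate 2; a second probe gave -0.94, -0.57 and -2.81 in the same animals. Agt, angiotensinogen, was 2.38, 0.05 and 1.17, and its second probe 1.17, -1.12 and -0.15. Ces1e, a carboxylesterase, gave 4.29, 1.81 and 3.91, and Cyp2j4, a P450 epoxygenase, 1.65, -0.77 and 0.32. Replicate 2 was thus the lowest animal for all of these but Igf1. Sult1b1, a sulphotransferase, was 4.87, 3.00 and 2.77, and Syne4, a nuclear envelope protein, 3.49, 3.15 and 0.88. Rasd2, a small GTPase, was highest in replicate 2 at 2.57, against 0.41 and 0.83.

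The order with replicate 1 highest and replicate 2 lowest was the commonest among variable genes under scaling by the 75th percentile. It was found in 146 of the 395 genes (37.0%) and in 1748 of all 11648 (15%). Replicate 2 stood apart below the others in 27.1% of the 395, against 16.3% of all kept genes, and replicate 1 above them in 25.3%, against 13.0%. Cyp2c11 was 2.11, -2.47 and -0.69, a 24.0-fold difference in signal on 1 probe. Kap, described above, had its lowest value in replicate 2 on its second probe too, at 4.75 against 6.52 and 6.96. Gstm1, a glutathione transferase with close paralogs, was 1.33, -0.70 and 1.86.

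Gene lists carried the same order unevenly. Of the 48 lists 16 had their highest mean deviation in replicate 1 and their lowest in replicate 2, and 23 stayed within 0.1 of their mean in every animal. The straight proximal tubule differed by 0.39, -0.36 and -0.03 and the brush border by 0.25, -0.21 and -0.04, while the convoluted proximal tubule differed by at most 0.03. Interferon response genes gave 0.33, -0.45 and 0.12, and 9 of the 14 kept had that order, against 1748 of all 11648 kept genes. Usp18, a brake on interferon signalling, was -1.12, -2.81 and -1.58, Mx1, an antiviral GTPase, 2.43, 1.49 and 1.98, and Ifi27 5.86, 4.85 and 5.81. Common reference genes deviated by 0.00, -0.02 and 0.02, and the brightest, Ppia, gave 8.72, 8.62 and 8.77. Of the 5 lists with a deviation of at least 0.3 in some animal, the organic anion and cation carriers were another, and the last were adipocyte and hepatocyte genes, each carried by 1 gene. Cidec, a lipid droplet protein, gave -0.13, -1.99 and -0.94, and without it the largest deviation of the adipocyte list was 0.11. Without Cyp2c11 the largest of the hepatocyte list was 0.10. The straight proximal tubule list without Agt gave 0.30, -0.27 and -0.03, and the interferon list without Usp18 gave 0.30, -0.40 and 0.11. The organic anion and cation carriers without Slco4c1 gave 0.26, -0.24 and -0.02, so that list then stayed below 0.3 in every animal.

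The spike-in controls, RNA of known sequence added to each sample, also differed between arrays. On the scale used here, relative to each array's 75th percentile, all 8 spike-in probes well above background were lowest in replicate 2. Their mean deviations were 0.08, -0.22 and 0.13 in replicates 1 to 3. Replicate 2 had the highest intensity at its 75th percentile, which by itself lowers spike-in values on this scale. The median SD of a spike-in probe between arrays was 0.192, and the median over genes was 0.116. These SDs are not directly comparable, since the scaling is set on the non-control probes and not on the spike-ins. When the arrays were scaled by the spike-ins instead, an alternative added after the data were seen, the order with replicate 1 highest and replicate 2 lowest was found in 89 of 503 genes with a range over 1 (17.7%) and in 370 of all 11648 (3.18%). After quantile normalisation it was found in 136 of 400 (34%) and in 14.1% of all genes. How common that order is thus depended on the scaling, and the part of array-wide signal in it was not tested further. Spike-in scaling shifts all genes of an array alike, so the list deviations above would move by the size of the spike-in deviations. The animal that is lowest in a list can then change, and the lists were not described again on that scale.

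**Figure D4:**
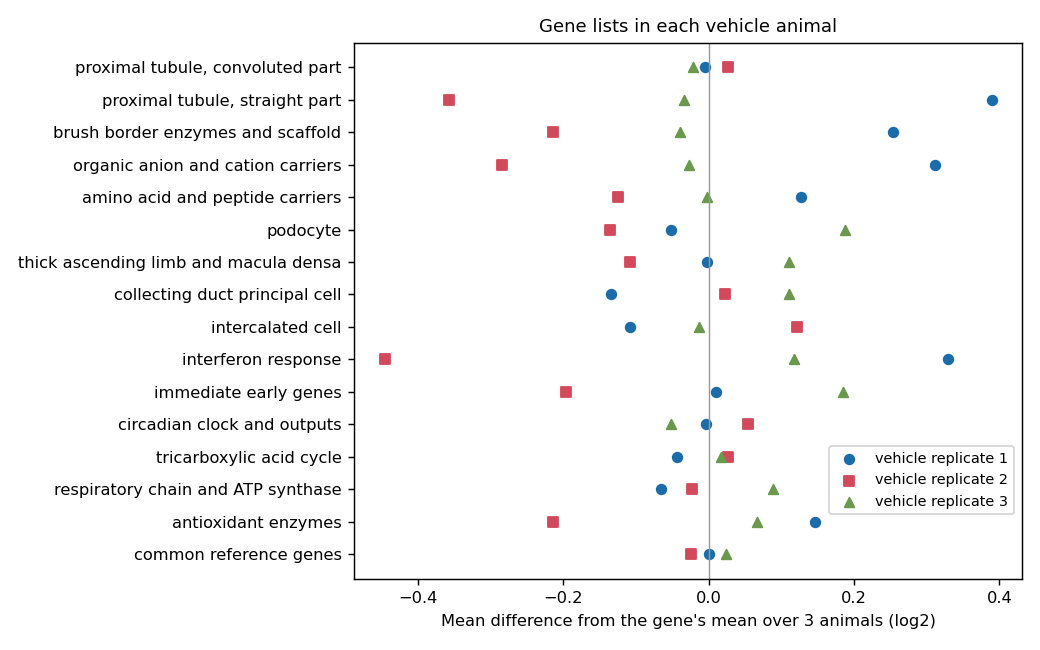
For 16 of the lists, the mean difference of the kept genes from their own 3-animal means (horizontal axis, log2) is shown for each animal by a marker. Replicate 2 is far to the left in the interferon row at -0.45 and replicate 1 far to the right in the straight proximal tubule row at 0.39, while the markers of the reference genes lie close to 0.

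Further genes of this kind were picked after their values were seen, for their size or their fit to that order. Gal, the neuropeptide galanin, had the widest range of all, at -5.65 and -4.99 in replicates 1 and 2 and 4.71 in replicate 3. The values in replicates 1 and 2 lie near the lowest mean level of a kept gene, -5.74. A second Gal probe gave -6.29, -5.64 and 3.84 but was well above background on only 2 arrays, so it was not kept. Slpi, a secreted protease inhibitor, was 1.32, -3.86 and 1.92, a 55.2-fold difference, and its second probe agreed in order. The kininogen genes Kng1 and Kng2 were both lowest in replicate 2: Kng1 gave -1.23, -5.03 and -1.01, and Kng2 gave -0.78, -4.37 and -0.49. They are close paralogs, so their probes may not be independent. With normexp the animals kept their order in these 4 genes, and the range was 8.11 in place of 10.4 for Gal, 4.99 in place of 5.79 for Slpi, 2.61 in place of 4.02 for Kng1 and 2.64 in place of 3.87 for Kng2. The organic anion carrier Slco1a1 gave 2.45, 0.38 and 1.53, and Gclc, which limits glutathione synthesis, 7.22, 5.70 and 6.27. Some genes ran the other way. Bcl6, a transcriptional repressor, was highest in replicate 2 at 3.52 against 1.51 and 1.88, and Fkbp5, a glucocorticoid-induced chaperone, was 2.68 there against 1.41 and 1.79.

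**Figure D5:**
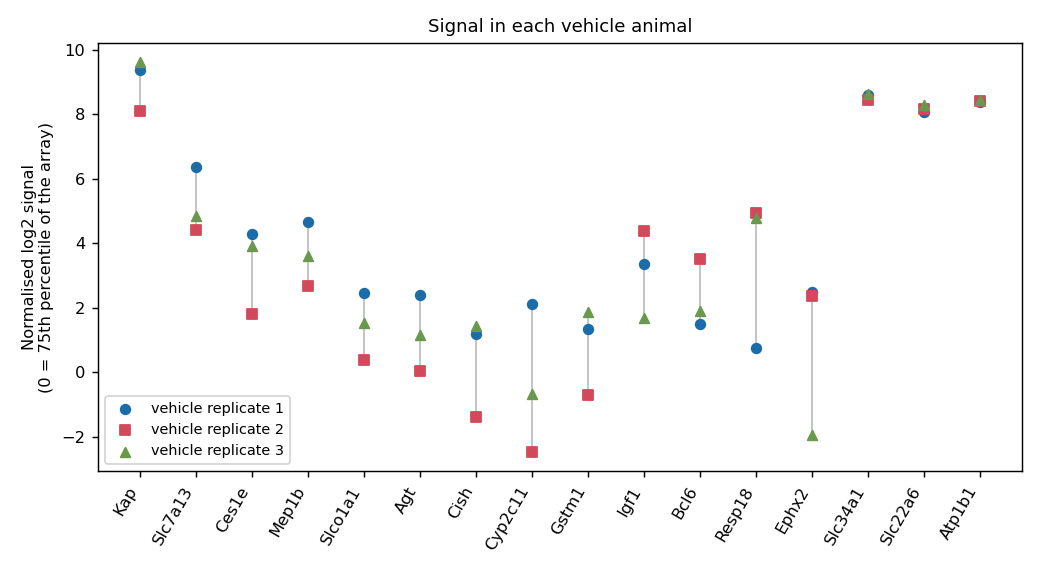
Normalised log2 signal (vertical axis) of 16 genes in each animal, 1 marker per animal joined by a line; the 3 genes at the right, Slc34a1, Slc22a6 and Atp1b1, are even carriers shown for scale. Replicate 2 (squares) is lowest from Kap to Gstm1 and highest for Igf1, Bcl6 and Resp18.

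The promoter of Cish is shown because this gene was among the most variable and its upstream window was the only one of its kind here. It lies at chr8:116850719-116850968 on the plus strand of GRCr8, again the 250 bases before the start from RefSeq, with matches to TTCNNNGAA, the STAT5 element, in capitals; this motif reads the same on both strands.
Cish: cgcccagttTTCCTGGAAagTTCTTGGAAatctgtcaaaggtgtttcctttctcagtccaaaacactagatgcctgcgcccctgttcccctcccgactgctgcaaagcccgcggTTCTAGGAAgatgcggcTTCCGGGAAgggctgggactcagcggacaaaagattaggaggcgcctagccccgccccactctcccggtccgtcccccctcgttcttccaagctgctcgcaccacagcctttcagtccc
The matches begin 241, 230, 136 and 119 bases before the start and do not overlap. TTCNNNGAA was found in 569 of the 9128 promoters (6.23%), and Cish was the 1 gene (0.0110%) with 4 matches. Among variable genes in which replicate 2 stood apart below the others, 10 of 85 promoters held it (11.8%), and among all 296 variable genes with a promoter 25 did (8.45%). Cish itself is in both of these counts. The Igf1 window held none. These counts describe letters, and neither STAT5 activity nor its binding was measured.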

How the data were processed

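RNA of 3 vehicle renal cortices was labelled with Cy3 and scanned, and the spots were read with Feature Extraction 10.7 of Agilent, as the submitters' processing notes say. Files deposited from the scanner give each spot's intensity as a background-subtracted signal not normalised between arrays, with flags for well above background, saturation and outliers, per the file headers. The authors also deposited a linear table, in which each value is the ratio of a spot's signal to the 75th percentile of that array, without centring, as a match to the scanner signals shows. Its column medians are 0.1033 to 0.1063. Its columns for replicates 1, 2 and 3 match the scanner files of replicates 3, 1 and 2, so the replicate numbers used here are those of the scanner files; the group is the same either way.

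After 84 external control probes and 26 probes with an outlier flag were left out, 61547 of 61657 non-control probes remained. Of these 27449 were named by matching their transcript accession, without version, to RefSeq's rat gene table, and 34098 were not named. A probe was kept when well above background on all 3 arrays (39943 probes), its log2 signal was taken relative to the array's 75th percentile, and the brightest kept probe stood for its gene. There is 1 group of 3, so no test was run and no p-value is given, and the number of arrays limits the precision. Over 8 spike-in probes with 35 spots each, the median SD between spots of an array was 0.0536. That of a probe's mean between arrays, relative to each array's 75th percentile, was 0.192.

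The text names the 15 brightest genes, the 15 most variable at or above the median level, from each of 48 lists the 4 brightest members and the most variable one, and a set of standard kidney genes; list genes named as dim are named by that count, transcription factors of other lineages as a contrast, and others are said to be picked after their values were seen. Some genes that this rule names are not reported here. The members, lists and rules were chosen with earlier results of these data known. The 48 lists hold 599 genes, of which 523 were kept, 41 were dim and 35 were not named on the array. Promoters came from RefSeq's GRCr8 table, and motifs were searched on both strands. Alternatives were normexp on median spot and background signals with an offset of 50 (limma 3.58.1, R 4.3.3), scaling by quantiles, by the median or by the 75th percentile over detected probes, the authors' table, weaker filters on dim probes, the median of a gene's probes, and each animal left out; scaling by the spike-ins, and lists without their most variable member, were added after seeing the data. The calculations used Python 3.11.15, pandas 2.3.3 and numpy 2.4.6 and were tested on simulated data.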

Additional observations from a re-analysis of the deposited data

How the results depend on the processing

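The number of genes kept ranged from 11648 to 11991 over the alternatives other than no filter, which holds 15281, and the median SD from 0.0914 to 0.154, except with spike-in scaling, chosen after seeing the data, where it was 0.220. The count of genes with a range over 1 was 395 as reported and 212 with normexp, of which 205 were among the 395; the cause was not tested. With no filter on dim probes it was 1428, a setting that adds probes near background, and with 1 animal left out it was 162 to 259, since 2 animals then set the range. The other settings gave 381 to 517. The order of genes depended most on the choice of probe: with the median of a gene's probes the rank correlation with the reported order was 0.935, and the median percentile moved by over 5 in 16 of the 48 lists. Without a filter it moved by over 5 in 23 lists, by up to 21.3 for lymphocyte genes. With normexp no list moved by more than 2.42. No paired analysis was possible because only 1 group enters and no test was run. Signals close to background limit the dim genes most.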
